A study of Mus musculus with 14 samples.

Results

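The immunoglobulin kappa locus of the mouse supplied 80 of the 29687 array probes that could be tested in peritoneal B-1a cells labelled as Bmi1 knockout or wild type. Its probes were those placed on chromosome 6 between 67500000 and 70700000 of genome build mm9 whose descriptions spoke of an immunoglobulin, a kappa or light chain, an antibody or a V region. Of the 106 probes in that interval, 84 met this rule, and 80 of these had signal well above background on 4 or more of a genotype's 7 arrays. The other 4, U29595, AY186205, NP060060 and X05391, were above background on at most 2 arrays of a genotype and were not tested. Probes carry the names of the array design. Most are GenBank entries of single antibody transcripts, so a name such as X53355 stands for 1 antibody's kappa chain and not for a germline gene.

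Each B cell joins 1 of many variable (V) segments to a joining (J) segment and splices the product to the constant segment Igkc, so nearly all kappa transcripts share the constant region while the V part differs from clone to clone. A V probe therefore reads kappa RNA from cells that had chosen that V segment or a near relative of it. Its values here were not divided by those of the constant region, so they are not shares of kappa RNA. B-1a cells are CD5-positive B cells of the body cavities that secrete natural antibodies. In mice their receptors are known for recurrent V segments, among them receptors that bind phosphatidylcholine, a lipid of cell membranes. In RNA from many cells, fewer cells using a segment and less RNA per cell cannot be told apart.

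The samples were 7 arrays labelled Bmi1 KO (knockout) and 7 arrays labelled wild type (WT), all from B-1a cells of the mouse peritoneum, in 2 sets of experiments. Set 1 held 3 KO and 3 WT arrays and set 2 held 4 of each. Strain, age, sex, the allele that removes Bmi1, the cell sort and whether an array stands for 1 mouse or a pool are not stated in the labels, so the tests speak only of the variation among these 14 arrays. Bmi1 encodes a subunit of the Polycomb repressive complex that marks histone H2A, which keeps target genes silent. Values are log2 intensity minus the 75th percentile of the same array, so a value of 0 lies at that percentile and 1 unit is a doubling.

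Neither of the 2 Bmi1 probes was lower on arrays labelled KO. Probe A_55_P2170335 lay between -1.57 and 3.78 on KO arrays and between -3.12 and 2.09 on WT arrays, and probe A_52_P39157 between -3.15 and 2.62 on KO arrays and between -5.32 and -2.19 on WT arrays. Their KO minus WT differences were 1.09 and 3.74 (unadjusted p = 0.24 and 0.000504, limma adjusted p = 0.548 and 0.176). The labels do not say which part of the gene was removed, so it is not known whether these probes lie in it, and every direction below rests on the genotype labels alone. Between 20.6 and 56.7% of all probes were well above background on KO arrays, against 43.5 to 63.3% on WT arrays. The 4 KO arrays under 40%, set 1 replicate 4 and set 2 replicates 1 to 3, are called the dim KO arrays. Their 75th percentiles, in that order, were 7.00, 5.04, 3.63 and 5.29 in log2 intensity, against 7.09 to 7.99 on WT arrays. A lower percentile takes less off every probe of its array. On KO set 2 replicate 2 the lowest level well above background was 0.55, so the 75th percentile of that array lay under the signal of every detected probe. All 5 B cell markers (Cd22, Cd79a, Cd79b, Ms4a1 and Pax5) were above background on 7 of 7 KO arrays and 7 of 7 WT arrays, and their mean level ran from 5.37 to 9.45 on KO arrays and from 5.38 to 6.71 on WT arrays. Of the B-1a markers, Cd5 was above background on 3 KO and 6 WT arrays and Ctla4 on 6 KO and 7 WT arrays, and the mean level of the 5-gene list ran from -0.23 to 2.27 on KO arrays and from 1.56 to 3.15 on WT arrays. The macrophage markers Csf1r, Emr1 and Itgam were above background on 7 of 7 arrays of both genotypes, Lyz2 on 4 KO and 7 WT arrays, Cd14 on 4 KO and 5 WT, Gata6 on 2 of each and Timd4 on 1 KO and 2 WT, and the mean level of that 7-gene list ran from -0.90 to 7.14 on KO arrays and from -0.49 to 3.35 on WT arrays. Of the 4 plasma cell markers, Prdm1 was above background on 7 of 7 arrays of both genotypes, Xbp1 on 4 of each, Igj on 3 KO and 7 WT arrays and Sdc1 on 1 KO array and 0 WT arrays, and their mean level ran from -1.80 to -0.09 on KO arrays and from -3.10 to -0.48 on WT arrays. The eosinophil markers Epx and Prg2 were above background on none of the 14 arrays and Ccr3 on 0 KO arrays and 1 WT array. The part of these markers and of array brightness in the results below was not tested, except where values without the dim arrays are given.

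Printed here are the 11 of the 60-base probe sequences that the results turn on, 5' to 3' as the array files give them, with positions in mm9. Capitals mark TATTNCTG, a stretch that codes for tyrosine, 1 further residue and cysteine in the reading frame of V segments, where framework 3 ends at the conserved cysteine before the third complementarity-determining region. The first 3 are the called probe X53355 (chr6:67846563-67846622, plus strand), its neighbour AJ278076 (chr6:67863987-67864045, plus strand), and ENSMUST00000103349 (chr6:69233792-69233851, minus strand), which the files describe as Igkv4-69 and which shares 41 of 48 aligned bases with X53355.
X53355: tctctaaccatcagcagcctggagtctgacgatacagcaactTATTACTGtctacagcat
AJ278076: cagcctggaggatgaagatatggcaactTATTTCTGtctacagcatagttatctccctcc
ENSMUST00000103349: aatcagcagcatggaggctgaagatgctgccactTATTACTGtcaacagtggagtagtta

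The next 5 are probes with the smallest p on the higher side or the highest mean signal, a rank that also depends on how well each probe binds, and all lie on the minus strand. AY351698 is at chr6:68966568-68966627, U18580 at chr6:68992966-68993025, ENSMUST00000177795 at chr6:69349806-69349865 and DQ372760 at chr6:69581780-69581839. ENSMUST00000101325 (probe A_55_P2058040, described as Igkv4-71) spans chr6:69388212-69494412 in the files, which is far longer than the probe itself.
AY351698: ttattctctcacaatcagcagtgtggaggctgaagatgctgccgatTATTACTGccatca
U18580: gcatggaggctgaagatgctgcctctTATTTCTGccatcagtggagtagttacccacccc
ENSMUST00000177795: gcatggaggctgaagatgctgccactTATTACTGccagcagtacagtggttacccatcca
ENSMUST00000101325: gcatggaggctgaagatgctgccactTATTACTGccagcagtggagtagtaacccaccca
DQ372760: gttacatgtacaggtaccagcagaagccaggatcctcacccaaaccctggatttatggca

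The last 3 are the constant region probe ENSMUST00000103410 (Igkc, chr6:70676692-70676751, plus strand) and a pair placed far apart in the locus, EU568236 (chr6:68102545-68102604, plus strand) and AF466768 (chr6:70672497-70672556, plus strand), which share 52 of 55 aligned bases.
ENSMUST00000103410: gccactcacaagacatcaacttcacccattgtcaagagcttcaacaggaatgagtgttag
EU568236: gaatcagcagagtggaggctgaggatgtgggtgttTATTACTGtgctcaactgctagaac
AF466768: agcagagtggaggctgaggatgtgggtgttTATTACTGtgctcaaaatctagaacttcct

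TATTNCTG stood as printed in 34 of the 84 kappa probes (40.476%) and in 439 of all 55681 probes (0.788%), and on either strand in 35 kappa probes (41.667%) and 813 of all probes (1.46%). A match describes these letters only, and it shows that many kappa probes cover the same part of the V region.

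The comparison of genotypes asks whether kappa RNA as a whole, or the RNA read by single V probes, differed between arrays labelled KO and arrays labelled WT. X53355 fell on KO arrays, and it was the only kappa probe past the threshold of adjusted p = 0.05 in the limma fit over all 29687 probes. Over the whole array 0.0303% of probes passed (0.0269% lower and 0.00337% higher), and among the kappa probes 1 of 80 (1.25%) passed, in the lower direction. At an unadjusted p of 0.05, 5 kappa probes were lower on KO arrays (6.25%, against 5.38% of all probes) and 15 of the 80 were higher (against 8.18% of all probes). The members were picked by position and description with results of these data known, and several of them read related sequences, so these shares are a description.

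The median KO minus WT difference of the 80 probes was 0.23, against 0.32 for all probes tested, a median of -0.09 relative to the array. Of the 80 probes, 39 lay above and 41 below the all-probe median. Each difference depends on the scaling: where each array's 75th percentile was taken only over the probes detected on every array (common-probe scaling), the all-probe median moved to -1.02. That scaling subtracts 1 value per array, so the difference of each probe with a value on every array fell by the same amount and its place relative to the array was kept. Differences are therefore also given relative to the all-probe median.

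X53355 is the V kappa transcript of a hybridoma that made antibody to phosphatidylcholine. On KO arrays it read -0.52, 5.59 and -1.83 in set 1 and -1.54, -1.57, 1.89 and 3.15 in set 2. WT arrays read 8.45, 7.35 and 7.41 in set 1 and 7.13, 6.24, 7.55 and 8.20 in set 2. Every KO array lay below every WT array, and on KO set 2 replicates 1 and 2 the probe was not well above background. WT arrays were close together and KO arrays spread widely, with means of 0.74 ± 2.87 on KO arrays and 7.47 ± 0.72 on WT arrays (SD, n = 7 each).

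The difference for X53355 was -6.74 (SE 1.05, limma adjusted p = 0.0301), or -7.06 relative to the all-probe median. It was -6.66 in set 1 and -6.80 in set 2, and the exact permutation of genotype within sets gave p = 0.00143, the smallest it can give. Without the 4 dim KO arrays the difference was -4.77, the smallest of the alternatives run, and it did not pass (limma adjusted p = 0.554), and the 3 brighter KO arrays ran from -0.52 to 5.59. With slide as a block it was -6.75 and did not pass (adjusted p = 0.0939). Leaving out 1 array at a time gave -7.59 to -6.20 with adjusted p = 0.00114 to 0.101, and the call held only without replicate 3 of KO set 1 or replicate 3 or 4 of KO set 2.

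The neighbour AJ278076, an antibody light chain whose probe shares 40 of 46 aligned bases with X53355, ran from -5.22 to 2.19 on KO arrays and from 0.28 to 3.46 on WT arrays. Its difference was -2.41 (SE 1.08, limma adjusted p = 0.367), and the groups overlapped. ENSMUST00000103349 shares 41 of 48 aligned bases with X53355 and differed in the other direction, by 2.26 (limma adjusted p = 0.216). Neither of these 2 probes passed the threshold.

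The other probes lower on KO arrays at an unadjusted p of 0.05 were U41439, X59193, AJ278076 and JX420695. U41439, the light chain of an antibody to cardiolipin, another membrane phospholipid, read 3.52, 4.29 and 4.47 on set 1 KO arrays and 4.42, -1.71, 3.24 and 3.28 on set 2 KO arrays. Its values on WT arrays were 6.25, 6.19 and 4.03 in set 1 and 5.46, 5.48, 6.61 and 7.28 in set 2. The groups overlapped through 1 WT array, set 1 replicate 4. The difference was -2.83 (SE 0.89, limma adjusted p = 0.287), -3.15 relative to the all-probe median, and -1.40 in set 1 against -3.90 in set 2. U41438, the light chain of another antibody to cardiolipin, went the other way, with a difference of 0.66 (limma adjusted p = 0.546). The antigen of the source antibody therefore did not go with 1 direction.

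X59193, a variable region light chain transcript, read -3.15, 1.12 and -5.45 on set 1 KO arrays and -3.27, -1.78, -3.44 and 0.14 on set 2 KO arrays. On WT arrays it read 1.14, 0.94 and -1.43 in set 1 and 1.61, -0.92, 1.82 and 2.05 in set 2. It was above background on 3 KO arrays and on 7 WT arrays, and its difference was -3.0 (SE 0.95, limma adjusted p = 0.292). JX420695, above background on all 14 arrays, ran from 4.53 to 7.64 on KO arrays and from 6.23 to 7.79 on WT arrays, with 1 KO array, set 2 replicate 3, inside the WT range. Igkv8-16, a V8 family segment, had a difference of -2.78 and the widest spread of all, with 0.77 ± 4.03 on KO arrays and 3.55 ± 1.14 on WT arrays (SD, n = 7 each).

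The higher side was made up of probes seen on nearly every array. U18580, a V kappa transcript of clone BALB/c-54, read 5.06, 5.78 and 6.74 on set 1 KO arrays and 7.76, 7.77, 5.86 and 4.51 on set 2 KO arrays. WT arrays read 4.31, 4.08 and 3.39 in set 1 and 3.38, 3.66, 4.08 and 3.11 in set 2. The groups did not overlap, and the highest KO values came from set 2 replicates 1 and 2, both dim KO arrays. The difference was 2.50 (SE 0.62, limma adjusted p = 0.197), or 2.18 relative to the all-probe median.

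DQ372760, another kappa transcript, read 4.00, 4.56 and 4.78 on set 1 KO arrays and 6.81, 7.66, 5.35 and 4.42 on set 2 KO arrays. Its values on WT arrays were 2.02, 3.51 and 2.92 in set 1 and 3.11, 2.39, 3.63 and 3.11 in set 2, again with no overlap. Its difference was 2.41 (SE 0.61, limma adjusted p = 0.204).

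ENSMUST00000103349 (Igkv4-69) read 5.09, 5.91 and 6.68 on set 1 KO arrays and 8.17, 8.20, 6.64 and 5.26 on set 2 KO arrays. On WT arrays it read 4.76, 4.66 and 3.85 in set 1 and 3.88, 4.37, 4.60 and 3.97 in set 2. AY351698, the light chain of an antibody to the human urokinase receptor, ran from 4.82 to 8.24 on KO arrays and from 3.33 to 4.71 on WT arrays, with a difference of 2.20 (SE 0.62, limma adjusted p = 0.231). These were the 4 kappa probes (5% of 80) whose KO arrays all lay above all WT arrays, against 0.128% of all probes, and each had the smallest exact permutation p of 0.00143.

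The absence of overlap on the higher side held under this scaling only. Under common-probe scaling 0 kappa probes had every KO array above every WT array (0.0135% of all probes), and under quantile normalization and in the deposited values 1 did, X91669 (0.0842% and 0.0775% of all probes). Under each of these, 3 kappa probes, X53355, U41439 and JX420695, lay lower on every KO array than on any WT array (0.357%, 0.209% and 0.205% of all probes, against 0.131% for all probes under the 75th percentile, where X53355 alone did so). The differences of U18580, DQ372760, ENSMUST00000103349 and AY351698 stayed above 0 under each alternative run, at 1.14, 1.03, 0.92 and 0.86 at the lowest, and none passed the threshold. The number of kappa probes higher at an unadjusted p of 0.05 was 3 under common-probe scaling (0.704% of all probes) and 5 under quantile normalization (6.22% of all probes), and 8 were lower under both (20% and 9.73% of all probes).

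X91669, the light chain of cell line 15H8, ran from 1.0 to 3.04 on KO arrays and from -4.83 to 1.06 on WT arrays, with a difference of 2.68 (SE 0.82, limma adjusted p = 0.269). Only the lowest KO array and the highest WT array crossed. JX420719, a V region transcript of clone GHNX-8-5, ran from 1.92 to 5.51 on KO arrays and from 0.14 to 2.41 on WT arrays, with a difference of 2.29 (SE 0.68, limma adjusted p = 0.256).

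The other 9 probes higher at an unadjusted p of 0.05, outside the named ones, were above background on all 14 arrays and overlapped between genotypes. They are described after their values were seen. AF468836, a light chain V transcript with the largest positive difference of the 80, ran from 1.59 to 9.02 on KO arrays and from 0.07 to 4.84 on WT arrays, a difference of 2.69. L09033, from a hybridoma against the Sm autoantigen, starts 92 bases from it and ran from 2.0 to 8.18 on KO arrays and from 0.25 to 4.29 on WT arrays. L09027 and S74547, also from antibodies to Sm, differed by -1.11 and -0.09. S60946 had the lowest KO array of the 9, at 0.95, and differed by 2.24. U55650 and AB663493 share 40 of 40 aligned bases although they are placed on different strands, and differed by 1.81 and 1.77. X75105, M83037, U20820 and U18569 differed by 1.89, 1.88, 1.68 and 1.41.

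Kappa V segments lie in both orientations, and by the strand in the array files 35 probes were on the plus strand and 45 on the minus strand. The median difference was 0.12 on the plus strand, with 3 probes higher and 3 lower at an unadjusted p of 0.05, and 0.90 on the minus strand, with 12 higher and 2 lower (8.18% of all probes were higher and 5.38% lower). Under common-probe scaling 0 were higher and 4 lower on the plus strand, and 3 were higher and 4 lower on the minus strand (0.704% of all probes higher and 20% lower). Plus strand probes reach from 67505984 to 70676751 and minus strand probes from 67892237 to 70407554. Many probes of 1 strand share sequence, so the strands are compared by their values only.

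The constant region reads every kappa transcript whatever its V segment. Its probe, ENSMUST00000103410, read 8.42, 8.37 and 10.25 on set 1 KO arrays and 11.14, 12.67, 10.14 and 8.18 on set 2 KO arrays. WT arrays read 9.48, 7.98 and 7.77 in set 1 and 8.20, 8.35, 8.96 and 9.25 in set 2. The groups overlapped, and the 4 highest values were those of the 4 dim KO arrays. The difference was 1.31 (SE 0.70, limma adjusted p = 0.386), or 0.99 relative to the all-probe median, and it did not pass the threshold. It was -0.21 without the dim KO arrays, and -0.03 under common-probe scaling, where the value relative to the all-probe median was the same.

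A second probe named for a constant region clone, Igkv4-53, is placed at a V segment. It read -0.37, 0.05 and -2.49 on set 1 KO arrays and 2.58, -0.43, -1.81 and -0.29 on set 2 KO arrays. Its values on WT arrays were 0.01, -0.67 and -2.02 in set 1 and -1.15, -0.28, -2.83 and -4.74 in set 2. Its difference was 1.28 (SE 0.87, limma adjusted p = 0.468), and the groups overlapped.

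Chosen for description by their mean signal over the 14 arrays, which sets no order of RNA amount between probes, were both probes of ENSMUST00000101325, and ENSMUST00000177795. ENSMUST00000101325 (A_55_P2058040) ran from 5.95 to 9.26 on KO arrays and from 5.40 to 6.72 on WT arrays, with a difference of 1.24 (SE 0.62, limma adjusted p = 0.373). Its second probe, A_52_P578436, differed by 0.88 and ENSMUST00000177795 by 1.26. The signs of all 3 turned under other scalings. ENSMUST00000177795 and A_55_P2058040 share sequence, while A_52_P578436 shared at least 90% identity over at least 40 aligned bases with no other kappa probe.

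Probes of related sequence gave related readings. In pairs with at least 90% identity over at least 40 aligned bases, a limit chosen after the values were seen, there were 32 pairs among 28 tested probes. Their readings over the 14 arrays had a median Pearson r of 0.89, from -0.22 to 0.996, and the 3128 other pairs had a median r of 0.11 (arrays and their depth are shared, so this is a description across probes). After the mean of each genotype in each set was taken out, the median was 0.93 for related pairs and 0.13 for the others.

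The largest set of related probes held 7, AY351698, U18580, ENSMUST00000103349, X79554, ENSMUST00000177795, ENSMUST00000101325 and U18569. All 7 had positive differences, from 0.90 to 2.50, and 4 had an unadjusted p under 0.05. They share sequence: U18580 and ENSMUST00000101325 have 55 of 59 aligned bases in common, and ENSMUST00000177795 and U18569 have 53 of 53. Of the 4 probes with no overlap on the higher side 3 belong to this set, so they are not separate observations. DQ372760 lies outside it and covers an earlier part of the V region, without TATTNCTG. The sets compare probe sequences only, so they cannot show whether DQ372760 reads the same transcripts as these probes.

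A second set of 6, S60874, AF316510, HQ446714, EU568236, S74547 and AF466768, had differences between -0.13 and 0.82 and none under an unadjusted p of 0.05. EU568236 ran from 5.12 to 6.92 on KO arrays and from 5.44 to 7.56 on WT arrays. AF466768, placed beside the constant region, ran from 4.84 to 6.66 on KO arrays and from 5.31 to 7.74 on WT arrays, and the r of the pair was 0.87. Neither probe separated the genotypes. The related pair JX420695 and X75105, with 38 of 42 aligned bases in common, went apart: JX420695 differed by -1.29 and X75105 by 1.89, and their r was -0.22, the only negative one of the 32 pairs. A set of 4 near the constant region, E05351, Igk-V21, HQ015080 and U18577, had differences from -1.53 to 0.05.

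KO arrays differed among themselves more than WT arrays did. The SD over KO arrays was above that over WT arrays for 69 of 80 kappa probes (86.2%), against 84.8% of all probes, so the share is near that of the whole array. The median SD was 2.21 on KO arrays and 1.01 on WT arrays for the kappa probes, and 1.89 on KO arrays and 1.10 on WT arrays for all probes. The mean correlation between 2 arrays over the kappa probes was 0.65 among KO arrays and 0.82 among WT arrays, and over all probes 0.66 among KO arrays and 0.80 among WT arrays.

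Each array was then set against the median of the WT arrays (for a WT array, of the other 6), less that array's own median deviation over all probes. A deviation of 3 or more, which is 8-fold, was shown by 12, 5 and 21 of the 80 kappa probes on set 1 KO arrays and by 26, 34, 27 and 5 on set 2 KO arrays. On WT arrays it was shown by 4, 1 and 5 in set 1 and by 4, 3, 1 and 6 in set 2. Only the 4 dim KO arrays showed it for more than 20 probes. The share of kappa probes was 15, 6.25 and 26.2% on set 1 KO arrays, against 19.2, 6.01 and 34.4% of all probes, and 32.5, 42.5, 33.8 and 6.25% on set 2 KO arrays, against 22.4, 28.8, 21.3 and 5.03% of all probes. On WT arrays it ran from 1.25 to 7.5%, against 1.15 to 13.8% of all probes. The kappa share was above that of all probes on 5 of 7 KO arrays and 3 of 7 WT arrays.

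Which probes deviated changed from one KO array to the next. Of the 80 probes, 46 deviated upward on 0 KO arrays, 22 on 1, 7 on 2, 3 on 3, 1 on 4 and 1 on 5. Downward, 39 deviated on 0, 23 on 1, 7 on 2, 8 on 3, 1 on 4, 1 on 5 and 1 on 6. X53355 deviated downward on 6 of the 7 KO arrays, the most of any kappa probe, and X59193 on 5. D85126 deviated upward on 5 KO arrays, the most in that direction. On KO set 2 replicate 2, 9 probes deviated upward and 25 downward, but only 1 of the 25 was above background there, while on KO set 1 replicate 2 it was 6 of 9. On KO set 1 replicate 4 it was 3 of 8, and on KO set 2 replicates 1, 3 and 4 it was 0 of 7, 6 of 24 and 2 of 3. KO set 1 replicate 3 had 0 downward deviations. The size of the remaining downward deviations rests on values at background.

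On KO set 2 replicate 3 the probes next to the constant region stood low together, an observation made after the values were seen. Of the 8 tested probes between chr6:70523153-70649054, 6 (75%) had their lowest value of all 14 arrays there, and 2 of the 8 were above background. The same held for 14 of the other 72 kappa probes (19.4%) and 6.61% of all probes, so low values on that array were not limited to this stretch. Just outside it, E05351, D85126 and EU817848 also had their lowest value there, at -0.85, -3.00 and -2.67, while X91669 read 3.04. The 8 probes are not separate observations. Igk-V21 and HQ015080 share 49 of 49 aligned bases, and HQ015080 and U18577 share 55 of 59. AF433163 is placed beside BC080787, and Igkv3-4 beside U18577. The median of the 8 probes was -2.78 on that array, 3.85 on the other KO arrays and 2.57 on WT arrays. The same array read 10.14 for the constant region, 7.25 for Igkv8-16 and 6.66 for AF466768, which lies nearer still to the constant region but shares its sequence with EU568236.

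The difference between genotypes was compared between the sets by a contrast in the same fit. None of the 80 kappa probes differed between the sets at an adjusted p of 0.05 in limma (0% of all probes), and 0 did at an unadjusted p of 0.05 (5.37% of all probes). The smallest unadjusted p were those of NP060121, with a KO minus WT difference of 1.42 in set 1 and -1.57 in set 2, and Z25442, with 1.64 in set 1 and -2.09 in set 2 (limma adjusted p = 0.876 for both contrasts). Set 2 KO arrays lay on 1 slide with 2 WT arrays, and on that slide alone X53355 differed by -6.86 (limma adjusted p = 0.757).

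The other receptor chains were read from lists of the same array. Of 87 tested heavy chain probes 0 passed the adjusted threshold in limma, and 4 were lower and 2 higher at an unadjusted p of 0.05 (against 5.38% of all probes lower and 8.18% higher). Under common-probe scaling 7 of the 87 were lower and 0 higher (against 20% of all probes lower and 0.704% higher). The heavy chain transcript JX120281 came first, with 1.92 ± 3.86 on KO arrays and 7.49 ± 0.51 on WT arrays (SD, n = 7 each), a difference of -5.57 (limma adjusted p = 0.182). Like X53355 it lay lower on all 7 KO arrays than on any WT array, as did 0.131% of all probes. Of 6 lambda light chain probes 0 passed and 4 were higher at an unadjusted p of 0.05, Iglv1 by 2.23 (limma adjusted p = 0.324), and their median difference was 1.51. Under common-probe scaling 0 of the 6 were higher and 0 lower at that p.

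For the lists that follow, the shares of all probes are likewise 5.38% lower and 8.18% higher at an unadjusted p of 0.05, and 20% lower and 0.704% higher under common-probe scaling. Among regulators of kappa transcription 0 of 28 probes passed in limma, and 3 were lower and 4 higher at an unadjusted p of 0.05, or 7 lower and 0 higher under common-probe scaling. The B cell coactivator Pou2af1 differed by 2.49 (adjusted p = 0.292), and Ikzf1, encoding Ikaros, had 1 probe at -3.56 and another at 2.66. Of 12 probes of the recombination and surrogate light chain genes, which act before a receptor is made, 0 passed in limma and 0 had an unadjusted p under 0.05, or 1, lower, under common-probe scaling. Of 9 probes of receptor partners such as Cd79a, Btk and Blnk, 0 passed in limma and 3 were higher at an unadjusted p of 0.05, but 2 were lower and 0 higher under common-probe scaling. Of 9 secretion probes 0 passed in limma and 1, Edem1, was lower at an unadjusted p of 0.05. The 17 tested probes of the same chromosome 6 interval that are not described as immunoglobulin had 0 calls in limma and 3 higher at an unadjusted p of 0.05, or 3 lower and 1 higher under common-probe scaling.

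Outside the locus, the probes whose values over the 14 arrays most resembled those of X53355, after the mean of each genotype in each set was taken out, were Klhl26 (r = 0.97), Pphln1 (r = 0.93), Lsm14b (r = 0.93) and 2 long noncoding RNA probes on chromosomes 17 and 1 (r = 0.92 both). Their KO minus WT differences ran from -3.53 to -1.77. These are the 5 highest correlations among tested probes outside the kappa set with a value on every array and are given as a description.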

How the data were processed

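RNA of peritoneal B-1a cells was measured on 14 one-colour Agilent arrays, 7 labelled KO and 7 labelled WT. Per the labels' protocols, total RNA came from a micro-scale column kit and cDNA was labelled with Cy3 by an undisclosed company method, so any amplification bias is unknown. Spot intensity was extracted with Agilent Feature Extraction 10.7.3.1 on mm9 positions, with detrending and surrogate values for dim spots, per the file headers. Marks for background, saturation and outliers are a 0 or 1 score for each spot, per the file headers. The deposited log2 table has equal distributions in its columns (median 3.952), followed the scanner values (lowest Spearman's rho 0.99926) and served as an alternative. Its scale and direction are settled by that comparison, while its tool is not given in the sources used.

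Main values were log2 intensity minus the 75th percentile of 59305 non-control spots, with outlier spots left out and spots of a probe averaged. Surrogate values compress dim probes, so large differences of probes near background are imprecise. limma 3.58.1 in R 4.3.3 was fitted to all 29687 probes above background on 4 or more arrays of a genotype, with genotype and set as terms, and two-sided p-values were adjusted by Benjamini and Hochberg's method (threshold 0.05). The fit was tested on simulated data, where it recovered 37 of 100 changes of 3 log2 units and 92 of 100 changes of 6. A probe that did not pass can therefore still differ. The simulation gave both genotypes the same spread, unlike these arrays. Single probes also had an exact permutation within sets (1400 arrangements). The set was read from the numbering style of the titles. Slide 1 carried set 1, while set 2 was split over slide 2 (4 KO, 2 WT) and slide 3 (2 WT). Probe sequences were aligned with Biopython 1.88.

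The kappa probes, the lists and the alternatives were chosen with earlier results of these data known. Named probes were those past the threshold, the constant region probes, 6 with the smallest p in each direction, the 4 brightest and 2 for the set contrast. Lists covered the heavy and lambda chains, kappa transcription, recombination, receptor partners, secretion and markers of B, B-1a, T, plasma and mast cells, macrophages and eosinophils. Of the T cell list, Cd4 was above background on 7 KO and 7 WT arrays and Cd8a on 6 KO and 7 WT arrays. Cd3e was so on 4 KO and 6 WT arrays and Cd3g on 3 KO and 6 WT arrays. Cd3d was so on 2 of each and Cd8b1 on 0 KO arrays and 1 WT array. The mean level of the T cell list ran from -3.07 to 0.18 on KO arrays and from -3.26 to -1.23 on WT arrays. Of the mast cell list, Tpsb2 was above background on 6 KO and 7 WT arrays and the other 4 markers on at most 2 arrays of a genotype. One gene of the lists is not reported here, and kappa promoters were not analysed here.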

Additional observations from a re-analysis of the deposited data

Results flagged for a closer look

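A search for single arrays far from the others of their genotype covered the 19 named kappa probes in each genotype (Dixon's ratio of the gap to the range, 7 arrays a group), and chance flags about 1 in 20 groups. U41439, an anti-cardiolipin light chain, read -1.71 on KO set 2 replicate 2, where it was below background, and its next KO array read 3.24 (ratio 0.80). X91669 read -4.83 on WT set 1 replicate 4, and its next WT array read -1.15 (ratio 0.63). These flags are about as many as that chance rate gives.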

How the results depend on the processing

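One kappa probe, X53355, was called under common-probe scaling (difference -8.08), quantile normalization (-7.52), normexp background correction (-6.43), the deposited values (-7.52) and array weights (-5.12). It was also called with no filter on dim probes, with a filter asking for all 7 arrays of a genotype, with 1 probe per name and without the set covariate. The count of called kappa probes was 0 with slide as a block, 0 without the 4 dim KO arrays, 0 in set 1 alone, 0 in set 2 alone and 0 on slide 2 alone. There the difference for X53355 was -6.75, -4.77, -6.66, -6.80 and -6.86. Fewer arrays were used in all of these but the slide block, and why the call was lost was not tested for any of them. Leaving out 1 array gave counts from 0 to 1. The set contrast called 0 kappa probes in limma under each alternative run. With the replicate block the count was 1. Deviations of same-numbered arrays had correlations from -0.22 to 0.19, which cannot settle with so few arrays whether the numbers pair the samples.

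None of the signs that turned belonged to a called probe. Under common-probe scaling, which by construction lowers the difference of each probe measured on every array by the same amount, Igkv4-53 read -0.063, the constant region probe -0.028, ENSMUST00000101325 -0.10 and -0.46 by its 2 probes, and ENSMUST00000177795 -0.084. The cause of the other turns was not tested. For the same last 3 probes the values were -0.041, -0.42 and -0.021 under quantile normalization, -0.057, -0.42 and -0.044 under normexp and -0.041, -0.42 and -0.021 in the deposited values. Without the dim KO arrays the constant region probe read -0.21, ENSMUST00000101325 (A_52_P578436) -0.31 and Z25442 0.13. NP060121 and Z25442 read 0.41 and 0.36 with slide as a block, 0.40 and 0.42 with array weights, and 1.42 and 1.64 in set 1 alone, where Igkv4-53 read -0.041. Leaving out 1 array moved NP060121 between -0.77 and 0.13 and Z25442 between -1.10 and 0.26. Over the 19 named probes and 29 alternatives, 506 of 549 values kept sign and side of the threshold. For X53355, the only called probe, 13 of 29 alternatives kept the call and 16 lost it. No other named probe passed the threshold in any alternative, so the total says little about the call. Dim signal limits X53355 on 2 KO arrays and X59193 on 4, where the size of the difference rests on values at background.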
